A study of Rattus norvegicus with 8 samples.

Results

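Cell division is carried out by a set of proteins that are made mainly in the late part of the cell cycle, and 36 of the genes that encode them were examined here across 8 RNA-seq libraries of rat astrocytes. The 36 symbols comprise mitotic kinases and cyclins, genes of the kinetochore, the spindle and the cytokinesis machinery, and the proliferation markers Mki67 and Top2a. Of the 28546 genes of the count table, 35 carried one of these symbols, and for Ccnb2 only the promoter sequence is used here, with no expression value. All 35 passed the filter on low counts that left 14445 tested genes, and the lowest count of any of them in any library was 34. The list was drawn up with the difference between the sh-APP and control groups already known, so its values in that contrast are given as a description and nothing is read from them.

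The astrocytes came from Sprague Dawley rat pups, and each group met 12-273 BM melanoma cells or their medium for 24 h. The sh-APP group (n = 3) met melanoma cells with an shRNA that targets APP, the gene of the precursor from which amyloid beta is released. The anti-Abeta group (n = 3) met melanoma cells with a scrambled shRNA in the presence of an anti-Abeta antibody, and the control group (n = 2) met cells with the scrambled shRNA and no such antibody. The labels call the exposure a co-culture in one place and a conditioned medium in another, and do not say which held for these libraries. A single melanoma line stands behind all 3 groups, and astrocytes kept without melanoma are not analysed here. Library totals ran from 34250464 to 47831595 counts. Whether each library stands for its own culture is not stated, so the p-values rest on the spread between libraries, which may be technical.

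Cells enter mitosis when cyclins A and B activate the kinase Cdk1, and further kinases of the Polo, Aurora and checkpoint families then build the spindle and watch over the attachment of chromosomes to it. The anaphase-promoting complex, a ubiquitin ligase, ends mitosis by destroying cyclin B and securin, after which the central spindle and a contractile ring divide the cell. Astrocytes taken from newborn rats keep dividing in culture, so these transcripts are present in such cultures, and bulk RNA cannot tell fewer dividing cells from less RNA per dividing cell.

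The mitotic genes were low in the sh-APP libraries relative to the anti-Abeta libraries, and all but 1 of them missed the threshold between anti-Abeta and control. Against the anti-Abeta group, 35 of 35 fell in the sh-APP group (edgeR's quasi-likelihood test, Benjamini-Hochberg adjusted p under 0.05), where 16.0% of all tested genes were called lower, and 29 of them fell by more than 2-fold, which 1.75% of all tested genes did. Their median log2 fold change was -1.37, against -0.01 over all tested genes. Every sh-APP library lay below every anti-Abeta library for 35 of 35 genes, an arrangement that 22.1% of all tested genes showed. This contrast shares the sh-APP libraries with the one in which the genes were chosen. Its groups differ in both the melanoma shRNA and the antibody, whose parts cannot be told apart in it. Anti-Abeta against control, which shares the control libraries with it, gave 1 lower call among the 35, for Bub1, and 0 higher calls, where 16.6% and 12.7% of all tested genes were called lower and higher. DESeq2 and limma-voom each called 5 of the 35 lower, where they called 19.0% and 17.2% of all tested genes lower. At an unadjusted p under 0.05 in edgeR, 5 of the 35 were lower and 0 higher. No share of all tested genes is given beside that count, so nothing is read from it. The median there was -0.20, against 0.03 over all tested genes, with 25 fold changes below 0 and 10 above. Scaled by library totals alone it was -0.05, against 0.18 over all tested genes. In the contrast of the choice, sh-APP against control, 34 of 35 were called lower and 0 higher, where 27.9% and 25.8% of all tested genes were, and the median was -1.52, against 0.03 over all tested genes.

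**Figure D1:**
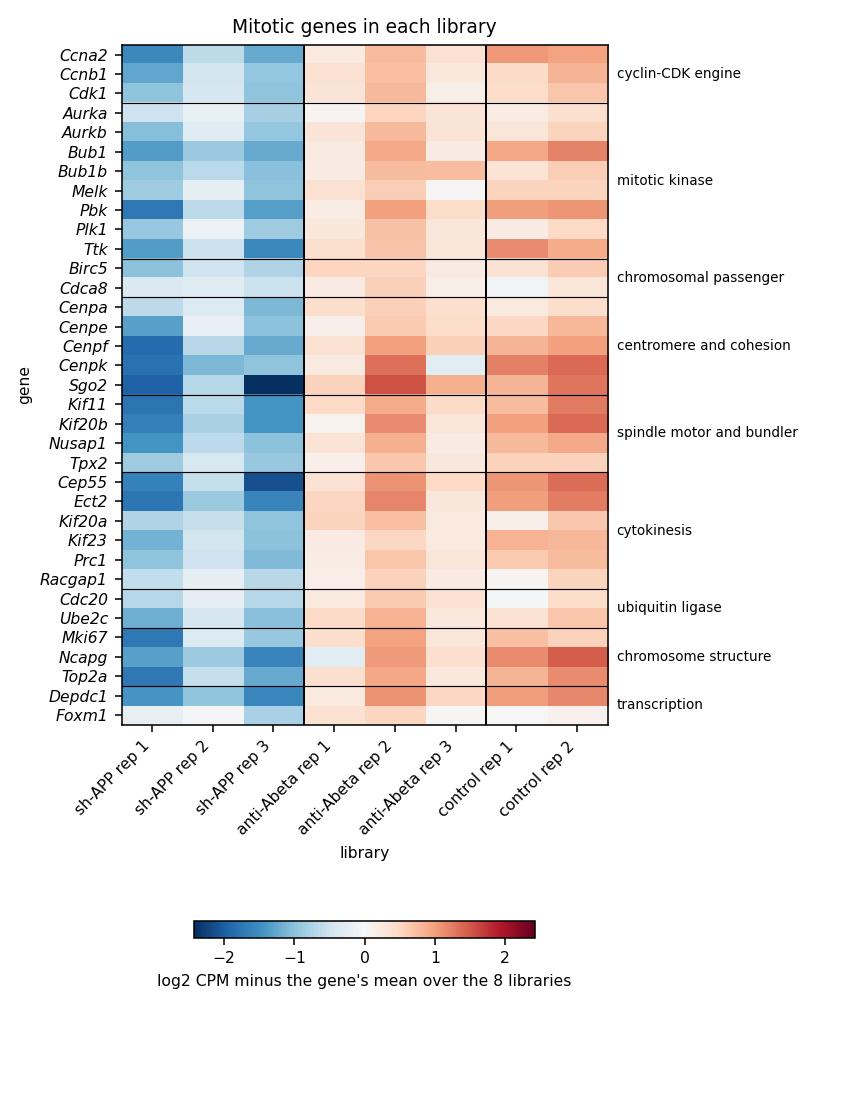
Log2 CPM (counts per 1000000, TMM-scaled) of the 35 mitotic genes in each library, minus the gene's mean over the 8 libraries; rows are genes grouped by role, columns are libraries, and the colour scale runs from blue (below the mean) to red (above it). The 3 sh-APP columns are blue in nearly every row, the anti-Abeta and control columns are mostly pale to red, and replicate 2 is the reddest or least blue column of the sh-APP and anti-Abeta groups.

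Many genes of this kind carry, just ahead of their start, a cell-cycle homology element (TTTGAA or TTTAAA), through which the DREAM and MuvB complexes and Foxm1 are known to act, and CCAAT boxes, which NF-Y binds. RefSeq promoter windows of assembly GRCr8 (250 bases before to 50 after the start, 300 in all) were at hand for 28 of the 36 listed genes, Ccnb2 included, and both motifs were searched on both strands, with matches allowed to share letters. TTTGAA or TTTAAA was found in 26 of 28 windows (92.9%), against 19.3% of the 11470 windows of tested genes and 28.3% of all 33469 windows in the table. In 25 of the 26, the match nearest the start began within 100 bases before it or in the 50 bases after it. CCAAT was found in 23 (82.1%, against 37.2% of the windows of tested genes), and both motifs in 22 (78.6%, against 7.74%). Cenpk held CCAAT only, and Melk held neither. The other mitotic genes, of 7 further lists, held TTTGAA or TTTAAA in 56 of 108 windows (51.9%), genes of DNA replication in 7 of 31 (22.6%), and G1 cyclins and CDK inhibitors in 3 of 10. A match is a run of letters in a window and says nothing of binding there. Shown here are the windows of Ccnb1, which has the usual order of CCAAT boxes followed by a single homology element, of Ect2 and Bub1, which fell steeply and hold 3 CCAAT boxes and 0, of Cdca8, one of the genes that moved least, and of Cenpk, which fell without the element. Capitals mark every match, ATTGG being CCAAT read on the other strand, and in Cdca8 the TTTGAA and ATTGG next to the start share the letter A.
Ccnb1 (chr2:33655176-33655475, minus strand): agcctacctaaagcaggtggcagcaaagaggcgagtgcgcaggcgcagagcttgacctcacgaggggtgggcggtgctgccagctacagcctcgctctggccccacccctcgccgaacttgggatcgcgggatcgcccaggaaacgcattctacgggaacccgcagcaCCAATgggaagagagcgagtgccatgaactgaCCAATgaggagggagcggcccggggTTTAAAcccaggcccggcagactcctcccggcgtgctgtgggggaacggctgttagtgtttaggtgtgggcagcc
Ect2 (chr2:111966577-111966876, minus strand): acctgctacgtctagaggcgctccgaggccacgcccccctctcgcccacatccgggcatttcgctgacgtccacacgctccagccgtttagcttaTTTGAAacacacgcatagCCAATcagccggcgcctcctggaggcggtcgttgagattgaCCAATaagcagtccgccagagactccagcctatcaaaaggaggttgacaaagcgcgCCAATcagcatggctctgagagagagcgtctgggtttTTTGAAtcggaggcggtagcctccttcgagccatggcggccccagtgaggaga
Bub1 (chr3:135504872-135505171, minus strand): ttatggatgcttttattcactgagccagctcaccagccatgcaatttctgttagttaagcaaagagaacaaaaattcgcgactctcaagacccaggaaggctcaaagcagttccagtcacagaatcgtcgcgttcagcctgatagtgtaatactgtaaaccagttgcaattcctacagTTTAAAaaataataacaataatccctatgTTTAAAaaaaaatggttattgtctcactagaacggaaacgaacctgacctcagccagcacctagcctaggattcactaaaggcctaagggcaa
Cdca8 (chr5:142483150-142483449, minus strand): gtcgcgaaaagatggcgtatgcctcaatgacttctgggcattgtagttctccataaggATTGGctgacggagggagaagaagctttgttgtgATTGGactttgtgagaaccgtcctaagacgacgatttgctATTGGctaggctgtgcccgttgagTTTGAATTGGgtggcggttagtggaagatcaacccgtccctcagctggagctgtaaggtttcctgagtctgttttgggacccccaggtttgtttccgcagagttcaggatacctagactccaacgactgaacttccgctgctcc
Cenpk (chr2:37094017-37094316, plus strand): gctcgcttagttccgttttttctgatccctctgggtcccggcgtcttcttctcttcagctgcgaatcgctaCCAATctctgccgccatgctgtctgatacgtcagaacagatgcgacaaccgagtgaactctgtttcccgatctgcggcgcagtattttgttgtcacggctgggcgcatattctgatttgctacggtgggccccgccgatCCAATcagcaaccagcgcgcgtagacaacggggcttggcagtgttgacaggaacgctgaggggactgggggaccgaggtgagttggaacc

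The cyclins and their kinase come first in the order of mitosis. Cdk1, the kinase that drives mitotic entry, had 14.4, 21.4 and 14.4 CPM in the sh-APP libraries, 35.4, 49.1 and 31.5 CPM in the anti-Abeta libraries, and 39.0 and 45.6 CPM in the control libraries. The 3 sh-APP libraries lay well below the other 5, and the anti-Abeta libraries straddled the control ones. For this gene and those below, the place of sh-APP relative to control is a description, since the genes were chosen on that contrast. Its log2 fold change was -1.20 ± 0.18 (adjusted p = 0.00116) in sh-APP against anti-Abeta and -0.13 ± 0.20 (adjusted p = 0.659) in anti-Abeta against control. Ccnb1, cyclin B1, whose window was shown with its CCAAT boxes, had 14.6, 25.7 and 18.3 CPM in the sh-APP libraries, 44.9, 58.2 and 41.5 CPM in the anti-Abeta libraries, and 48.0 and 62.1 CPM in the control libraries. The highest sh-APP library was again below the lowest of the other 5, and the log2 fold change was -1.30 ± 0.19 (adjusted p = 0.00105) in sh-APP against anti-Abeta. Ccna2, cyclin A2, which acts in S phase and at mitotic entry, had 9.83, 18.7 and 12.5 CPM in the sh-APP libraries, 34.2, 49.1 and 37.2 CPM in the anti-Abeta libraries, and 60.3 and 56.6 CPM in the control libraries. Here the groups formed 3 steps with no overlap, the anti-Abeta libraries lying between. Ccna2 fell in sh-APP against anti-Abeta by a log2 fold change of -1.55 ± 0.20 (adjusted p = 0.000717), while anti-Abeta against control, at -0.54 ± 0.21 (adjusted p = 0.0733), did not pass the test. DESeq2 and limma-voom did call Ccna2 lower in anti-Abeta.

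Among the mitotic kinases, 8 of 8 fell in sh-APP against anti-Abeta, with log2 fold changes from -1.75 to -0.78. Plk1, the Polo-like kinase of centrosomes and kinetochores, had 9.88, 16.8 and 10.2 CPM in the sh-APP libraries, 22.3, 30.3 and 22.4 CPM in the anti-Abeta libraries, and 21.2 and 25.8 CPM in the control libraries. sh-APP replicate 2 came closest to the other groups but stayed below them, and the log2 fold change was -1.02 ± 0.20 (adjusted p = 0.00348). Aurka, the Aurora kinase of the spindle poles, had 11.9, 14.9 and 9.66 CPM in the sh-APP libraries, 17.6, 24.1 and 20.9 CPM in the anti-Abeta libraries, and 18.9 and 21.9 CPM in the control libraries. The gap between the highest sh-APP library and the lowest of the others was small here. Its log2 fold changes were -0.78 ± 0.16 (adjusted p = 0.00489) in sh-APP against anti-Abeta and 0.03 ± 0.18 (adjusted p = 0.908) in anti-Abeta against control. Aurkb, the Aurora kinase of the chromosomal passenger complex, had 11.0, 18.3 and 11.9 CPM in the sh-APP libraries, 28.2, 38.8 and 28.4 CPM in the anti-Abeta libraries, and 27.6 and 33.0 CPM in the control libraries. The sh-APP libraries stood apart, anti-Abeta replicate 2 was the highest of all 8, and the fold change was -1.21 ± 0.19 (adjusted p = 0.00130) on the log2 scale.

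Bub1, a kinase of the spindle checkpoint that marks centromeric chromatin, was the single mitotic gene called in anti-Abeta against control. It had 7.73, 10.5 and 8.52 CPM in the sh-APP libraries, 22.9, 37.1 and 22.8 CPM in the anti-Abeta libraries, and 37.7 and 45.1 CPM in the control libraries. The 3 groups did not overlap, and anti-Abeta replicate 2 lay just under the lower control library. The log2 fold change was -1.63 ± 0.19 (adjusted p = 0.000526) in sh-APP against anti-Abeta and -0.58 ± 0.20 (adjusted p = 0.0456) in anti-Abeta against control. That second call was near the threshold: without control replicate 1 its adjusted p was 0.121, without control replicate 2 it was 0.268, without anti-Abeta replicate 1 it was 0.133, without anti-Abeta replicate 3 it was 0.140 and without sh-APP replicate 3 it was 0.0591, whereas without anti-Abeta replicate 2 it was 0.00106. It was also lost with upper-quartile factors (0.0586), library totals (0.0892), no low-count filter (0.109) and a fit of only those 2 groups (0.0725), and it held in DESeq2 (0.0136) and limma-voom (0.0250). Ttk, the Mps1 kinase that starts the checkpoint signal, had 6.73, 12.0 and 5.84 CPM in the sh-APP libraries, 22.6, 27.9 and 21.2 CPM in the anti-Abeta libraries, and 37.9 and 32.1 CPM in the control libraries. Its groups did not overlap either, and the log2 fold changes were -1.54 ± 0.22 (adjusted p = 0.00105) in sh-APP against anti-Abeta and -0.55 ± 0.23 (adjusted p = 0.0985) in anti-Abeta against control. Bub1b, which encodes the checkpoint protein BubR1, had log2 fold changes of -1.47 ± 0.17 (adjusted p = 0.000465) in sh-APP against anti-Abeta and 0.13 ± 0.18 (adjusted p = 0.643) in anti-Abeta against control. Pbk, a kinase active in mitosis, fell with a log2 fold change of -1.75 ± 0.25 (adjusted p = 0.000985) in sh-APP against anti-Abeta and had -0.45 ± 0.26 (adjusted p = 0.218) in anti-Abeta against control. Melk, a kinase of proliferating cells, had 4.33, 6.69 and 3.98 CPM in the sh-APP libraries, 10.2, 11.8 and 8.01 CPM in the anti-Abeta libraries, and 11.4 and 11.5 CPM in the control libraries. It fell in sh-APP against anti-Abeta (adjusted p = 0.00481) and had -0.20 ± 0.22 (adjusted p = 0.549) in anti-Abeta against control.

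Birc5 and Cdca8 belong with Aurkb to the chromosomal passenger complex. Birc5, survivin, which holds the complex at centromeres, had 3.67, 5.23 and 4.42 CPM in the sh-APP libraries, 10.5, 10.5 and 8.48 CPM in the anti-Abeta libraries, and 9.31 and 11.3 CPM in the control libraries. The sh-APP libraries were all below the rest and the other groups overlapped, with a log2 fold change of -1.14 ± 0.17 (adjusted p = 0.00108) in sh-APP against anti-Abeta. Cdca8, borealin, whose window was shown, averaged 19.1 ± 1.55 CPM in sh-APP (SD, n = 3), 31.2 ± 5.24 CPM in anti-Abeta (n = 3) and 27.2 ± 4.71 CPM in control (n = 2). Its log2 fold change of -0.71 ± 0.13 (adjusted p = 0.00315) in sh-APP against anti-Abeta was the second smallest among the 35.

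**Figure D2:**
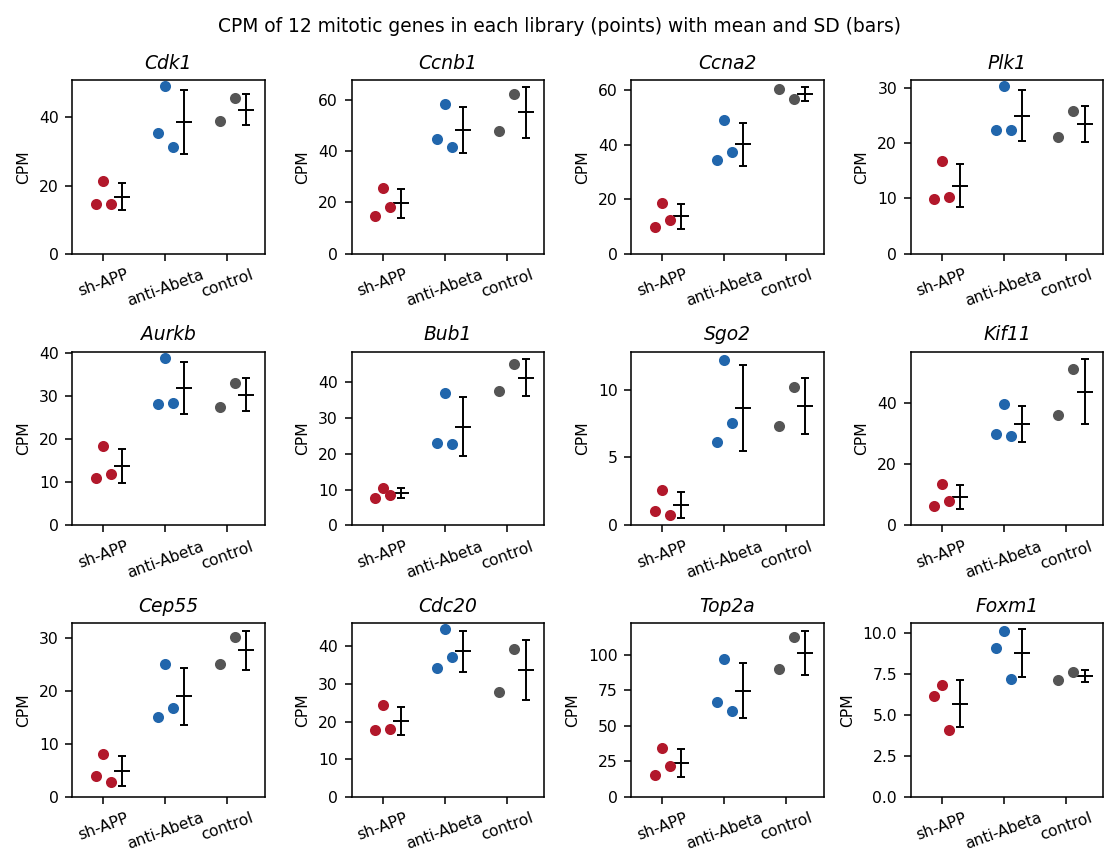
CPM of 12 of the mitotic genes in each library (points, vertical axis from 0), chosen to cover each role except that of the passenger genes Birc5 and Cdca8. The group mean and SD are drawn as a bar beside the points (n = 3 for sh-APP and anti-Abeta, n = 2 for control). In each panel all sh-APP points lie below all other points, which against control only describes the contrast in which the genes were chosen. In the Ccna2 and Bub1 panels the anti-Abeta points also lie below the control points, and in the Foxm1 panel the gap between sh-APP and control is small.

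Genes of the centromere and of cohesion there included the steepest fall. Sgo2, shugoshin 2, which protects centromeric cohesin, had 1.07, 2.59 and 0.778 CPM in the sh-APP libraries, 6.14, 12.2 and 7.56 CPM in the anti-Abeta libraries, and 7.34 and 10.2 CPM in the control libraries. The anti-Abeta and control libraries overlapped and the sh-APP libraries all lay below them. Of the 35 genes, this one also had the largest coefficient of variation within sh-APP (65.8%). Sgo2 had the largest log2 fold change of the 35 in sh-APP against anti-Abeta, -2.53 ± 0.39 (adjusted p = 0.00118), and one near 0 in anti-Abeta against control, -0.02 ± 0.39 (adjusted p = 0.971). Cenpe, a motor that carries chromosomes to the spindle equator, had 2.65, 5.72 and 3.30 CPM in the sh-APP libraries, 7.16, 10.2 and 9.03 CPM in the anti-Abeta libraries, and 9.34 and 11.6 CPM in the control libraries, and its log2 fold change was -1.17 ± 0.25 (adjusted p = 0.00588) in sh-APP against anti-Abeta. Cenpa, the histone H3 variant that marks centromeres, had 1.67, 2.06 and 1.21 CPM in the sh-APP libraries, 3.45, 3.84 and 3.40 CPM in the anti-Abeta libraries, and 3.06 and 3.46 CPM in the control libraries. Its sh-APP libraries lay below the other 5, which overlapped within a narrow band, and it fell by a log2 fold change of -1.11 ± 0.23 (adjusted p = 0.00515). Cenpf, a large kinetochore protein, fell with a log2 fold change of -1.84 ± 0.25 (adjusted p = 0.000811). Cenpk, a subunit of the inner kinetochore, fell with -1.84 ± 0.35 (adjusted p = 0.00315), and its anti-Abeta libraries were the most uneven of the list, at 13.8, 30.1 and 9.78 CPM. The Cenpk call was lost with no low-count filter (adjusted p = 0.0668). Neither gene passed in anti-Abeta against control (-0.24 ± 0.26 (adjusted p = 0.518) for Cenpf and -0.71 ± 0.36 (adjusted p = 0.155) for Cenpk).

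Spindle motors and microtubule bundlers fell together, 4 of 4 in sh-APP against anti-Abeta. Kif11, the kinesin that pushes spindle poles apart, had 6.25, 13.6 and 7.76 CPM in the sh-APP libraries, 29.8, 39.8 and 29.3 CPM in the anti-Abeta libraries, and 36.1 and 51.1 CPM in the control libraries. The highest sh-APP library held less than the lowest library of either other group, and the log2 fold change was -1.84 ± 0.25 (adjusted p = 0.000798). Kif20b, a kinesin that acts late in division, had 4.58, 8.45 and 5.29 CPM in the sh-APP libraries, 15.4, 31.9 and 17.7 CPM in the anti-Abeta libraries, and 28.9 and 37.3 CPM in the control libraries. Its anti-Abeta replicate 2 fell among the control values while the other 2 anti-Abeta libraries lay below them, and the log2 fold changes were -1.82 ± 0.28 (adjusted p = 0.00118) in sh-APP against anti-Abeta and -0.61 ± 0.29 (adjusted p = 0.131) in anti-Abeta against control. Nusap1, which bundles spindle microtubules, fell with a log2 fold change of -1.48 ± 0.20 (adjusted p = 0.000902) in sh-APP against anti-Abeta, and Tpx2, the activator of Aurora A on the spindle, with -1.08 ± 0.16 (adjusted p = 0.00105). Both missed the threshold in anti-Abeta against control (-0.36 ± 0.22 (adjusted p = 0.240) for Nusap1 and -0.18 ± 0.17 (adjusted p = 0.468) for Tpx2).

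All 6 cytokinesis genes fell in sh-APP against anti-Abeta. Prc1, which bundles the microtubules of the central spindle, had 36.9, 50.9 and 34.3 CPM in the sh-APP libraries, 81.4, 115 and 88.9 CPM in the anti-Abeta libraries, and 112 and 123 CPM in the control libraries. sh-APP was low throughout, anti-Abeta replicate 2 reached the control range and the other 2 anti-Abeta libraries did not. The log2 fold change of Prc1 was -1.22 ± 0.15 (adjusted p = 0.000611) in sh-APP against anti-Abeta. Cep55, which brings the abscission machinery to the midbody, had 3.83, 7.99 and 2.70 CPM in the sh-APP libraries, 15.1, 25.1 and 16.6 CPM in the anti-Abeta libraries, and 25.0 and 30.1 CPM in the control libraries, with a log2 fold change of -1.96 ± 0.32 (adjusted p = 0.00155). The same gene gave -0.54 ± 0.33 (adjusted p = 0.239) in anti-Abeta against control. Ect2, the exchange factor that activates RhoA at the division plane, averaged 8.49 ± 2.87 CPM in sh-APP (SD, n = 3), 35.9 ± 12.3 CPM in anti-Abeta (n = 3) and 47.8 ± 5.43 CPM in control (n = 2) and fell by a log2 fold change of -2.08 ± 0.25 (adjusted p = 0.000573), the second largest in that contrast. Kif23 and Racgap1 form the centralspindlin complex that recruits Ect2. Kif23 fell with a log2 fold change of -1.15 ± 0.16 (adjusted p = 0.00104) and had -0.50 ± 0.18 (adjusted p = 0.0502) in anti-Abeta against control, where its libraries did not overlap with the control ones and where DESeq2, limma-voom and factors of DESeq2's kind in edgeR called it lower. Racgap1 fell with -0.80 ± 0.17 (adjusted p = 0.00542) in sh-APP against anti-Abeta and gave -0.0037 ± 0.19 (adjusted p = 0.991) in anti-Abeta against control. Kif20a, which carries the passenger complex to the spindle midzone, fell with -1.26 ± 0.16 (adjusted p = 0.000717), and had 0.10 ± 0.18 (adjusted p = 0.723) in anti-Abeta against control.

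Cdc20 and Ube2c serve the anaphase-promoting complex. Cdc20, its mitotic activator, had 17.8, 24.4 and 17.9 CPM in the sh-APP libraries, 34.2, 44.7 and 37.1 CPM in the anti-Abeta libraries, and 28.0 and 39.3 CPM in the control libraries. Among the 5 libraries outside sh-APP the lowest was a control, and Cdc20 fell by a log2 fold change of -0.95 ± 0.16 (adjusted p = 0.00173) in sh-APP against anti-Abeta. Ube2c, its ubiquitin-conjugating enzyme, had 5.84, 9.97 and 6.57 CPM in the sh-APP libraries, 18.3, 23.8 and 15.9 CPM in the anti-Abeta libraries, and 17.0 and 21.0 CPM in the control libraries. The sh-APP libraries were again below the other 5, which overlapped, and the log2 fold change was -1.37 ± 0.20 (adjusted p = 0.00112).

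Chromosome structure was represented by 3 genes. Top2a, the topoisomerase that untangles sister chromatids, had 15.4, 34.2 and 21.8 CPM in the sh-APP libraries, 66.4, 97.2 and 60.7 CPM in the anti-Abeta libraries, and 90.3 and 112 CPM in the control libraries. sh-APP replicate 2 held the most of its group and still lay below the lowest anti-Abeta library, and the log2 fold change was -1.65 ± 0.25 (adjusted p = 0.00110) in sh-APP against anti-Abeta. Mki67, the Ki-67 protein of the chromosome surface and a common marker of proliferation, had 3.03, 8.06 and 5.33 CPM in the sh-APP libraries, 13.6, 19.7 and 12.4 CPM in the anti-Abeta libraries, and 16.7 and 14.8 CPM in the control libraries. Its log2 fold change was -1.47 ± 0.28 (adjusted p = 0.00328) in sh-APP against anti-Abeta and -0.05 ± 0.30 (adjusted p = 0.919) in anti-Abeta against control, where both groups overlapped. Ncapg, a condensin subunit, had 3.44, 4.69 and 2.84 CPM in the sh-APP libraries, 7.19, 17.6 and 11.4 CPM in the anti-Abeta libraries, and 19.0 and 23.7 CPM in the control libraries. The groups did not overlap, and Ncapg had the lowest log2 fold change of the 35 in anti-Abeta against control, -0.82 ± 0.29 (adjusted p = 0.0520), which missed the threshold in edgeR and passed in DESeq2 and limma-voom. In sh-APP against anti-Abeta it fell with a log2 fold change of -1.72 ± 0.28 (adjusted p = 0.00168).

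Foxm1, the transcription factor that drives many of these genes in late G2, moved least. It had 6.18, 6.84 and 4.07 CPM in the sh-APP libraries, 9.08, 10.1 and 7.19 CPM in the anti-Abeta libraries, and 7.14 and 7.64 CPM in the control libraries. The sh-APP libraries were the lowest 3 of the 8, by a small margin below control. In sh-APP against anti-Abeta the log2 fold change was -0.62 ± 0.20 (adjusted p = 0.0369). This call was lost when sh-APP replicate 1 or 3, anti-Abeta replicate 1 or 2, or either control library was left out, with adjusted p from 0.0610 to 0.135, and in a fit of only those 2 groups (0.0544). Foxm1 also had the highest log2 fold change of the 35 in anti-Abeta against control, 0.25 ± 0.22 (adjusted p = 0.432), and in sh-APP against control it was the only gene not called lower (-0.37 ± 0.22, SE). Depdc1, which encodes a DEP domain protein and is high in dividing cells, fell with a log2 fold change of -1.96 ± 0.23 (adjusted p = 0.000573) in sh-APP against anti-Abeta and had -0.44 ± 0.24 (adjusted p = 0.194) in anti-Abeta against control.

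**Figure D3:**
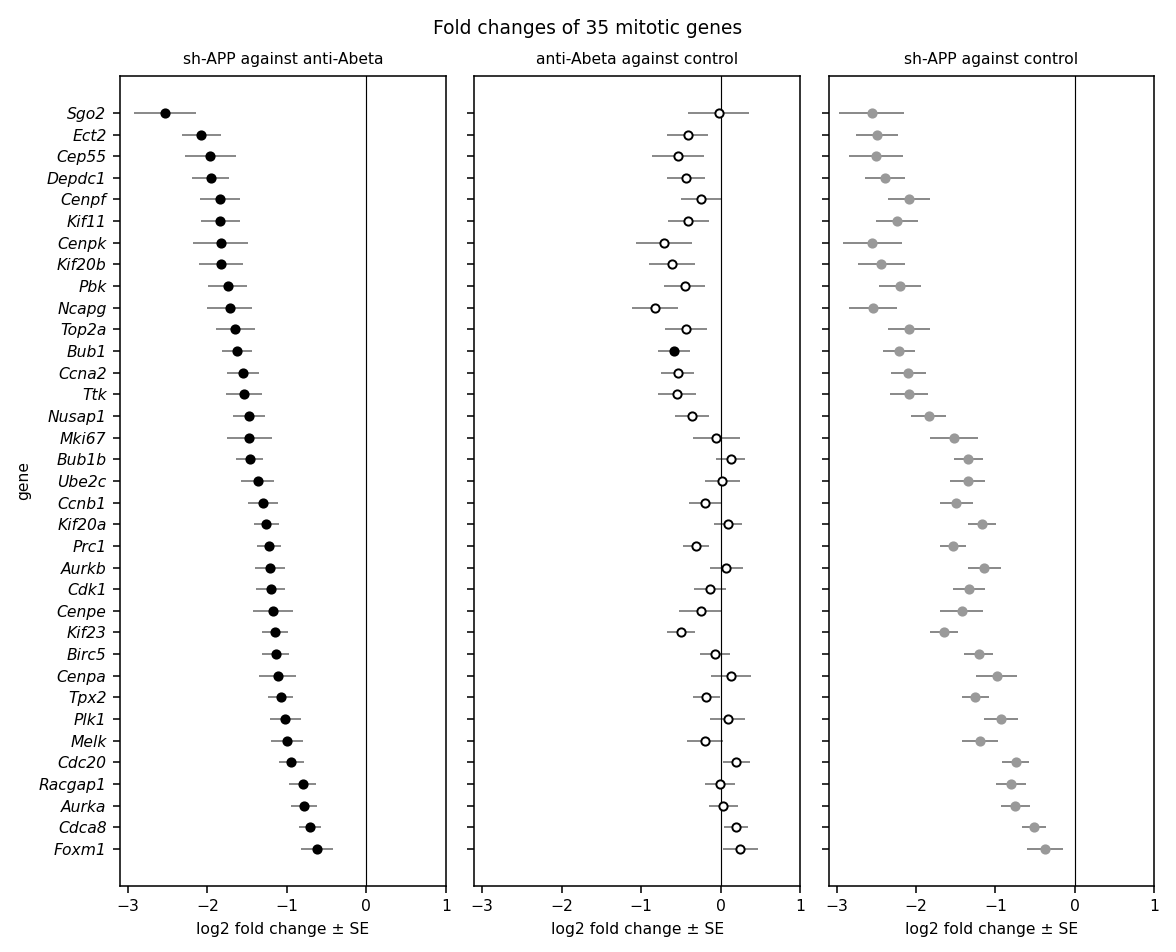
Log2 fold change ± SE of the 35 mitotic genes (rows, ordered by the first panel) in sh-APP against anti-Abeta, anti-Abeta against control and sh-APP against control; filled black points passed an adjusted p of 0.05, open points did not, and the grey points of the third panel, the contrast in which the genes were chosen, carry no test. All 35 points of the first panel lie below 0 and are filled, while those of the second panel scatter around and below 0 with Bub1 alone filled.

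In sh-APP against anti-Abeta the log2 fold changes ran from -2.53 for Sgo2 to -0.62 for Foxm1. In sh-APP against control, where the choice of the genes fixes the direction, they ran from -2.56 for Sgo2 to -0.37 for Foxm1, with Cenpk (-2.55), Ncapg (-2.54), Cep55 (-2.50) and Ect2 (-2.49) next to Sgo2, and Cdca8 (-0.52), Cdc20 (-0.75), Aurka (-0.75) and Racgap1 (-0.80) next to Foxm1. Without control replicate 2, Aurka, Cenpa, Cdc20, Racgap1 and Cdca8 were no longer called in that contrast. By role, the median log2 fold change in sh-APP against anti-Abeta was -1.84 for the 5 centromere genes, -1.65 for the 4 spindle genes and the 3 genes of chromosome structure, -1.34 for the 8 kinases, -1.30 for the 3 cyclin and Cdk1 genes, -1.29 for Foxm1 and Depdc1, -1.24 for the 6 cytokinesis genes, -1.16 for the 2 ubiquitin ligase genes and -0.93 for the 2 passenger genes. These medians were not compared by a test. In anti-Abeta against control the anti-Abeta libraries all lay below both control libraries for 6 genes (Bub1, Ccna2, Kif23, Ttk, Pbk and Ncapg) and all above them for 0, where 27.0% and 27.9% of all tested genes did so.

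Within a group the mitotic genes rose and fell together between libraries. Replicate 2 held the highest CPM of its group for 34 of 35 genes in sh-APP and for 34 of 35 in anti-Abeta, and for 31 of 35 in control, while the same libraries were highest for 35.2%, 35.5% and 49.5% of all tested genes. Summed over the 35 genes, the level was 313, 491 and 330 CPM in the sh-APP libraries, 846, 1217 and 855 CPM in the anti-Abeta libraries, and 1090 and 1260 CPM in the control libraries. The highest sum in sh-APP stayed below the lowest in anti-Abeta, and the second anti-Abeta library came within the control range. The median coefficient of variation of the mitotic genes was 28.5% in sh-APP, 19.2% in anti-Abeta and 12.6% in control, where the 8086 tested genes in the same range of CPM had medians of 8.06%, 9.51% and 6.66%. The shared order of libraries means that the 35 genes are not independent of each other. Without anti-Abeta replicate 2, the anti-Abeta against control contrast called 11 of the 35 lower instead of 1. In that fit 19.5% of all tested genes were called lower, instead of 16.6%. The median log2 fold change of the 35 was then -0.37. Without sh-APP replicate 2, the count of lower calls in sh-APP against anti-Abeta was again 35, with a median of -1.59. Without anti-Abeta replicate 2 it was 34, with a median of -1.17. Lower calls made up 14.9% and 10.9% of all tested genes in those 2 fits.

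**Figure D4:**
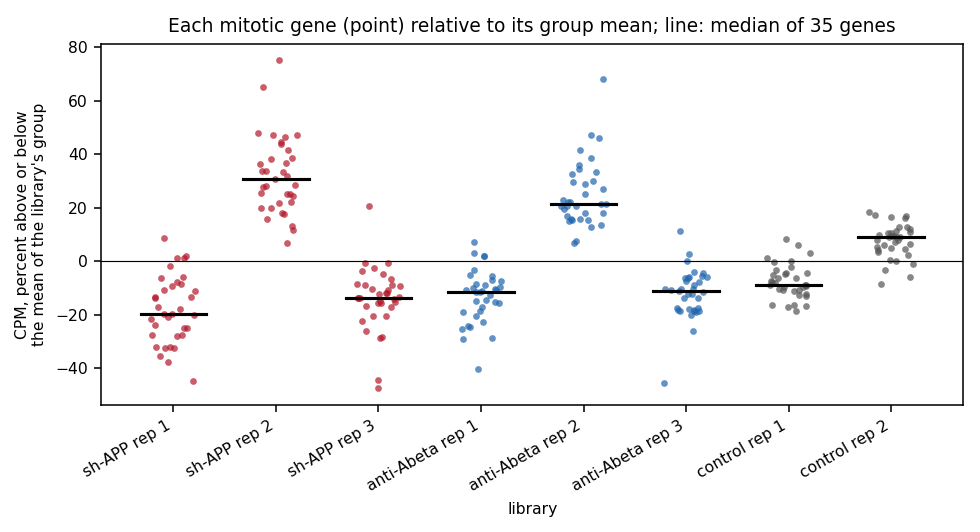
CPM of each of the 35 mitotic genes (points) in each library, as percent above or below the mean of the library's own group; the thick line is the median over the genes. The points of replicate 2 lie above 0 for nearly all genes in the sh-APP and anti-Abeta groups, and the median line of that library lies above 0 in every group.

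The rest of the mitotic machinery, 114 tested genes in 7 lists, moved mostly in the same direction, with a smaller median. These lists too were drawn up with earlier results of these data known, so their shares are a description and no separate support. In sh-APP against anti-Abeta 69 fell and 1 rose (60.5% and 0.877%, against 16.0% and 10.1% of all tested genes), with a median log2 fold change of -0.61. By list, 13 of 23 genes of the checkpoint and outer kinetochore fell, 12 of 16 of the inner centromere, 18 of 24 of spindle motors and assembly, 5 of 7 of cytokinesis, 12 of 15 of condensin and cohesin, 7 of 12 regulators of mitotic entry and exit, and 2 of 17 of the anaphase-promoting complex, with no rise outside the last list. The share of lower calls among genes of the anaphase-promoting complex (11.8%) was near that of all tested genes, so nothing is read from it about that list. Cenpi, of the inner kinetochore, fell with a log2 fold change of -1.71 ± 0.14 (adjusted p = 5.16e-05), and Mastl, the Greatwall kinase that restrains the phosphatase opposing Cdk1, with -1.59 ± 0.25 (adjusted p = 0.00129). Mad2l1, the checkpoint protein Mad2, gave -1.13 ± 0.23 (adjusted p = 0.00412), and Stag2, a cohesin subunit, gave -0.79 ± 0.11 (adjusted p = 0.000797). Wee1, the kinase that inhibits Cdk1, also fell (-0.56 ± 0.08 (adjusted p = 0.00105)). The 1 that rose was Anapc11, the catalytic RING subunit of the anaphase-promoting complex (0.24 ± 0.07 (adjusted p = 0.0202)). Its call was lost without sh-APP replicate 1 (adjusted p = 0.0653) or 2 (0.0638), while those of Cenpi, Mastl, Mad2l1, Stag2 and Wee1 held when any library was left out. Not all other lower calls held. Zwilch lost its call in 4 such fits, Cenpc and Gtse1 in 2 each, and Cdc27 and Wapl in 1 each.

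In anti-Abeta against control the same 114 genes gave 26 lower calls (22.8%, against 16.6% of all tested genes) and 8 higher ones (7.02%, against 12.7%), with a median log2 fold change of -0.20. These shares are near those of all tested genes, and scaled by library totals alone the calls numbered 12 lower and 15 higher, where 9.81% and 24.9% of all tested genes were called. Wapl, which releases cohesin, fell with a log2 fold change of -0.65 ± 0.11 (adjusted p = 0.00326). Anapc4, a scaffold subunit of the anaphase-promoting complex, gave -0.59 ± 0.08 (adjusted p = 0.00226), and Wee1 gave -0.55 ± 0.09 (adjusted p = 0.00267). Numa1, which anchors the spindle at the cell cortex, rose (0.46 ± 0.07 (adjusted p = 0.00256)). Those 4 calls held when any library was left out. Without anti-Abeta replicate 1 or 3 the lower calls numbered 15, where 12.1% and 11.6% of all tested genes were called lower. Without anti-Abeta replicate 2 they numbered 44, where 19.5% of all tested genes were called lower. Leaving out either control library left 1 in that group, and lower calls were then fewer, here and over all tested genes. Cenpq, of the inner kinetochore (-1.07 ± 0.23 (adjusted p = 0.00734)), and Stag2 (-0.65 ± 0.12 (adjusted p = 0.00332)) fell too. The calls of both were lost without control replicate 1, and that of Cenpq without control replicate 2 as well. Fewer of all tested genes were called in those fits too, and most calls were lost without control replicate 1.

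Outside mitosis, genes of DNA replication also gave more lower than higher calls in sh-APP against anti-Abeta, 24 lower and 0 higher of 36 (66.7% lower, against 16.0% of all tested genes), with a median log2 fold change of -0.54. This list and those below were likewise drawn up with earlier results of these data known, and their shares are a description. Tyms, which makes thymidylate, fell with a log2 fold change of -0.80 ± 0.13 (adjusted p = 0.00136), and Rrm1, a subunit of ribonucleotide reductase, with -0.56 ± 0.06 (adjusted p = 0.000465). Of 21 regulators of cell-cycle transcription, 10 fell (47.6%) and 0 rose, and of 14 G1 cyclins and CDK inhibitors, 5 fell (35.7%) and 1 rose (7.14%, against 10.1% of all tested genes), with a median of -0.18 over that last list. Ccne2, cyclin E2, fell with a log2 fold change of -1.10 ± 0.19 (adjusted p = 0.00211). The summed CPM of the 35 mitotic genes divided by that of the 36 replication genes was 0.359, 0.503 and 0.385 in the sh-APP libraries, 0.729, 0.957 and 0.714 in the anti-Abeta libraries, and 0.844 and 0.968 in the control libraries. The ratio was lower in each sh-APP library than in any anti-Abeta library, a comparison that shares the sh-APP libraries with the choice of the 35 genes. Against control that choice favours a low ratio, so nothing is read from it.

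**Figure D5:**
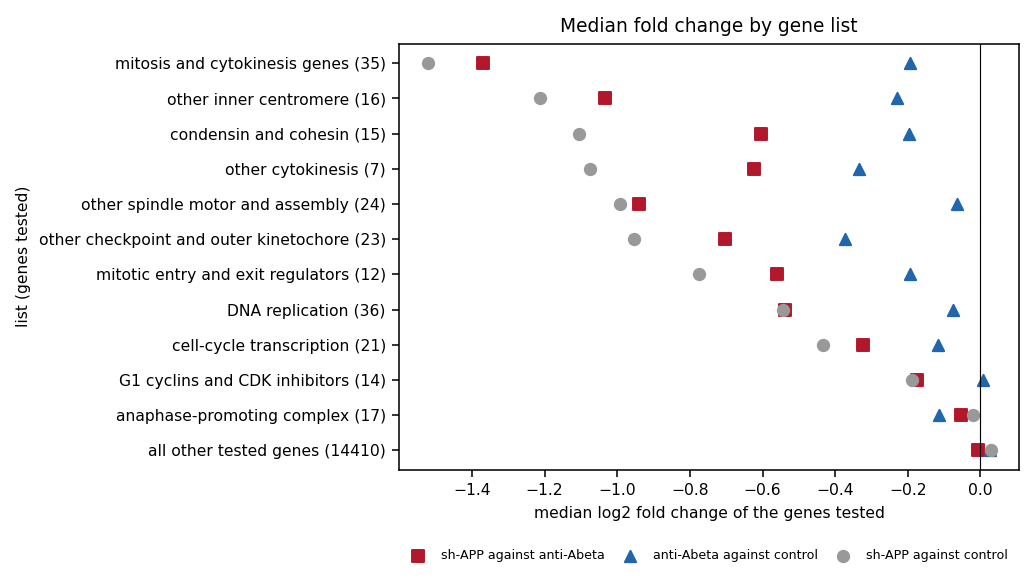
Median log2 fold change of each gene list (rows, with the number of genes tested in brackets) in sh-APP against anti-Abeta (squares), anti-Abeta against control (triangles) and sh-APP against control (circles, the contrast in which the 35 genes were chosen). The 35 mitotic genes have medians of -1.37, -0.20 and -1.52, the other mitotic lists except the anaphase-promoting complex lie between them and the DNA replication list in sh-APP against anti-Abeta, and all other tested genes lie near 0. The order of the lists is a description, since that contrast shares the sh-APP libraries with the choice of the 35 genes.

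Other features of the libraries also differed between the groups, some of them in the same order as the mitotic genes. Mitochondrially encoded genes took 2.28 ± 0.28% of the counts in sh-APP (SD, n = 3), 3.32 ± 0.31% in anti-Abeta (n = 3) and 5.63 ± 0.83% in control (n = 2). Of 12 astrocyte markers, all 12 were tested, and in sh-APP against anti-Abeta 7 rose and 1 fell (58.3% and 8.33%, against 10.1% and 16.0% of all tested genes). In anti-Abeta against control 4 rose and 3 fell (33.3% and 25.0%, against 12.7% and 16.6% of all tested genes). Their summed level was 17146 to 19657 CPM in sh-APP, 13999 to 14980 CPM in anti-Abeta and 15853 to 16210 CPM in control. The sum over 11 melanocyte and melanoma markers was 2282 to 2487 CPM in sh-APP, 3580 to 3873 CPM in anti-Abeta and 4373 to 4453 CPM in control. Gpnmb, which is not limited to pigment cells, made up most of it, with 2248 ± 102 CPM in sh-APP (SD, n = 3), 3609 ± 139 CPM in anti-Abeta (n = 3) and 4218 ± 48.2 CPM in control (n = 2). The pigment cell genes Mlana, Tyr, Tyrp1 and Dct had too few counts to be tested and Slc45a2 had 0 in all libraries. Summed neuronal markers were at 157 to 166 CPM in sh-APP, 230 to 294 CPM in anti-Abeta and 336 to 361 CPM in control, with Slc17a6 at 0. Single markers did not all follow that sum. Of 11 tested, 3 fell and 2 rose in sh-APP against anti-Abeta (27.3% and 18.2%, against 16.0% and 10.1% of all tested genes). In anti-Abeta against control 2 fell (18.2%, against 16.6%) and 0 rose (against 12.7%), with a median log2 fold change of 0.16. Oligodendrocyte lineage markers summed to 3150 to 3307 CPM, 3150 to 3495 CPM and 2673 to 2785 CPM in the same order of groups, and pericyte and fibroblast markers to 53.5 to 58.4 CPM, 56.3 to 74.1 CPM and 57.9 to 66.5 CPM. Microglial markers, with Cx3cr1 at 0, summed to 11.1 to 13.6 CPM in sh-APP, 12.8 to 22.1 CPM in anti-Abeta and 12.2 to 15.8 CPM in control. Endothelial markers, with Cldn5 at 0, averaged 9.36 ± 0.74 CPM in sh-APP (SD, n = 3), 7.84 ± 0.87 CPM in anti-Abeta (n = 3) and 6.37 ± 0.42 CPM in control (n = 2). The part of any of these in the levels of the mitotic genes was not tested. In the gene table of assembly GRCr8, 14 of the 35 genes overlap another gene: Aurka, Cenpk, Kif11, Kif20a, Kif20b, Plk1, Nusap1, Tpx2, Foxm1, Pbk, Prc1, Sgo2, Ncapg and Ect2. Without stated strandedness, reads shared with those neighbours cannot be told apart, and Kif20a overlaps Cdc23, itself a subunit of the anaphase-promoting complex.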

How the data were processed

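RNA-seq of rat astrocytes gave 8 libraries in 3 groups, taken from the labels: sh-APP (n = 3), anti-Abeta (n = 3) and control (n = 2). Per gene symbol, the authors deposited counts of reads: whole numbers with totals that differ between libraries, so not normalized. Per the submitters' processing notes, build rn6 was used, and the tools included HTSeq 0.11.1, STAR 2.6.0a, FastQC 0.11.7, SAMtools 1.9, Trimmomatic 0.36 and DESeq2 1.24.0. Whether counting used strand is not stated in the sources used here. Of 28546 genes, 8853 had no count. Totals ran from 34250464 to 47831595 counts per library. The share of counting error in the spread between libraries was not measured, and it is largest for genes with few counts.

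All 8 libraries were fitted together in edgeR 4.0.16 (R 4.3.3; robust quasi-likelihood, group as the only term, 5 residual degrees of freedom) after filterByExpr (minimum count 10, minimum total 15) and TMM scaling. The 3 contrasts were adjusted over the 14445 tested genes by the Benjamini-Hochberg method with a threshold of 0.05. CPM are TMM-scaled counts per 1000000, errors of means are SD, and those of log2 fold changes are SE, computed as the fold change over the square root of F. The fit was tested on simulated data. Summaries used pandas 2.3.3 and NumPy 2.4.6. Promoter windows and the table of overlapping genes are RefSeq's for GRCr8, a later build than rn6, so no position was carried between them.

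The members and all lists were chosen with earlier results of these data known. The text gives values in every library for a named set of members covering each role, and for those with the lowest and the highest fold change of each contrast. From other lists the rule takes up to 3 called genes with the smallest p in each direction for anti-Abeta against control and those called against their list's direction, and the text prints part of these. Alternatives were DESeq2 1.42.0, limma-voom (limma 3.58.1), upper-quartile factors, DESeq2-type size factors in edgeR, library totals alone, no low-count filter, 1 CPM in at least 3 libraries, a non-robust spread, a fit of the groups compared only, a replicate block and leaving out each library.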

Additional observations from a re-analysis of the deposited data

How the results depend on the processing

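For the 35 mitotic genes, the count of lower calls in sh-APP against anti-Abeta was 34 or 35 under every alternative, losing Foxm1 or, with no low-count filter, Cenpk, and the median log2 fold change ran from -1.59 to -1.17 when a library was left out. In sh-APP against control, the count was 29 to 34 over fits leaving out a library and 33 with library totals, which lost Cdca8. In anti-Abeta against control the count of 1 depended on the setting. It was 2 with factors of DESeq2's kind, 0 with upper-quartile factors, 0 with library totals, 3 with the filter of 1 CPM in at least 3 libraries, 3 in a fit of the compared groups only, and 5 with DESeq2 and with limma-voom. Over those settings, from 9.81% (library totals) to 20.2% (the filter of 1 CPM) of all tested genes were called lower. Leaving out an sh-APP or anti-Abeta library gave 0 to 11, where 11.6% to 19.5% of all tested genes were called lower. The 11 came without anti-Abeta replicate 2, the fit with 19.5%. The other mitotic genes were a result added after seeing the data. Their 26 lower calls in that contrast became 12 with library totals, beside 15 higher instead of 8. Leaving out an sh-APP or anti-Abeta library gave 15 to 44 lower calls and 4 to 9 higher. Over all tested genes those fits called 11.6% to 19.5% lower and 6.49% to 13.8% higher. Lower calls were fewer still when a control library was left out, here and over all tested genes. The higher calls in sh-APP against control also numbered 15 with library totals instead of 8, and that in sh-APP against anti-Abeta numbered 0 or 1 when a library was left out. Several of the 35 changed sign without being called in either fit, such as Cdk1, Birc5, Racgap1, Sgo2 and Mki67 with library totals, and no called gene changed sign. The cause was not tested. Library totals moved the median of all tested genes in sh-APP against control to 0.23 and that of the 35 to -1.32, so that the distance between them was -1.55 in both. With library totals, 13.6% and 13.3% of all tested genes were called lower and higher in sh-APP against anti-Abeta, and 21.4% and 35.8% in sh-APP against control. The labels number replicates in each group. Over all tested genes the deviations of same-numbered libraries from their group means correlated at -0.01 to 0.11, so by the rule used here, under which every pair must exceed 0.1, the numbers do not pair the samples. Between sh-APP and anti-Abeta, replicates 1 and 2 did correlate best with their own number (0.105 and 0.0984, against -0.101 and -0.108 between unlike numbers 1 and 2), and replicate 3 did not. Replicate 2 was also the highest of its group for 34, 34 and 31 of the 35 genes in sh-APP, anti-Abeta and control, and whether same-numbered libraries share a source was not tested. With the replicate block the counts of lower calls were 35 in sh-APP against anti-Abeta, 34 in sh-APP against control and 5 in anti-Abeta against control. The 2 control libraries limit the contrasts that use them, and a change smaller than the spread between libraries could not be detected.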

Other observations

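Genes outside the mitotic lists were set beside the promoter result. Of the 1788 RefSeq windows of such genes called lower in sh-APP against anti-Abeta, 19.6% held TTTGAA or TTTAAA, against 14.2% of the 1219 windows of genes called higher and 19.3% of the 8334 windows of genes not called. Among the 132 windows of such genes that fell by more than 2-fold, 33 held it (25.0%). Both motifs together were found in 7.89% of the windows of lower genes, 5.74% of those of higher genes and 7.48% of those not called. For the genes that fell by more than 2-fold that share was 10.6%. These shares are a description, and no test was run on them.

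Of 14 G1 cyclins and CDK inhibitors, 3 were called lower and 3 higher in anti-Abeta against control (21.4% each), near the 16.6% and 12.7% of all tested genes, so the calls are values of single genes and not a result about the list. Ccne2, cyclin E2, fell with -0.90 ± 0.20 (adjusted p = 0.00823) on the log2 scale, and the CDK inhibitors Cdkn1b and Cdkn2b had -0.70 ± 0.17 (adjusted p = 0.0114) and -0.41 ± 0.07 (adjusted p = 0.00349), whereas Ccnd3, cyclin D3, had 0.33 ± 0.08 (adjusted p = 0.0111), and its kinase partners Cdk4 and Cdk6 had 0.27 ± 0.07 (adjusted p = 0.0166) and 0.34 ± 0.11 (adjusted p = 0.0315) (edgeR's quasi-likelihood test). All 6 calls were lost without control replicate 1. That fit left 1 control library, and most calls over all tested genes were lost in it too. Of 36 genes of DNA replication, 6 were called lower and 2 higher in the same contrast (16.7% and 5.56%, against 16.6% and 12.7% of all tested genes). The lower share is near that of all tested genes, so these too are values of single genes. The 2 called higher were the licensing genes Mcm2 and Mcm7 (log2 fold change 0.31 ± 0.09 (adjusted p = 0.0237) for Mcm2 and 0.36 ± 0.10 (adjusted p = 0.0189) for Mcm7). Those calls were lost without control replicate 1 too. Leaving out control replicate 2 also ended the calls of Ccne2, Cdkn1b, Cdk4 and Cdk6, and leaving out 1 of the anti-Abeta libraries ended those of Cdk4, Cdk6, Mcm2 and Mcm7.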
